A study of Mus musculus with 3 samples.

Results

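The receptor chain genes described here are Il6ra, Il6st and Il27ra of the IL-6 family, Il12rb1, Il12rb2 and Il23r of the IL-12 family, and Il10ra and Il10rb of the IL-10 family. They were chosen by gene symbol, and all 8 were found, once each, among the 23283 genes or gene groups of each of the authors' 2 expression tables. The cells were CD4+ T cells from C57BL/6 mice that bound 2W:I-A(b), a complex of the immunizing peptide with the mouse MHC class II molecule I-A(b). They were sorted from popliteal and inguinal lymph nodes on day 7 after 2W1S peptide, LPS and IFA were injected into the footpads, and this immunization is common to all groups. There were 3 libraries, 1 each for wild-type mice (WT), for MyD88 T-KO (genotype Myd88 -/-) and for IL6ra T-KO (genotype Il-6 receptor a chain -/-), the deletions being specific to T cells per the series title. The sources used here do not name the driver of the deletion, the deleted exons or the age of the mice. Each library pooled cells from 4 experiments and from 15 to 30 mice, so it holds no measure of the spread between mice and no difference below has a replicate check.

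The receptors of these cytokines are built from shared and private chains and signal through JAK kinases and STAT transcription factors. IL-6 binds the private chain Il6ra, which then joins the shared signalling chain gp130, encoded by Il6st, and gp130 also pairs with Il27ra in the IL-27 receptor. Il12rb1 is shared by the receptors for IL-12, where it pairs with Il12rb2, and for IL-23, where it pairs with Il23r. Il10ra binds IL-10 and is completed by Il10rb, which also serves the receptors for IL-22 and the lambda interferons. In CD4+ T cells, IL-12 is known for promoting Th1 responses through STAT4, IL-6 and IL-23 for promoting and maintaining Th17 responses through STAT3, and IL-10 for restraining responses.

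Levels are in FPKM, fragments per kilobase of transcript relative to the mapped fragments of a library, scaled within each table. The depth behind them, estimated from the steps that single fragments leave in low values, was about 22.6 M fragments for MyD88 T-KO, 26.3 M for IL6ra T-KO and 22.8 to 23.3 M for WT. The 2 WT values are for the same library, so these depths include the scaling of each table. WT values of the second table were a median of 1.02 times those of the first, and each knockout library was compared with the WT values of its own table. Differences are given as a fold of FPKM and as a log2 ratio of knockout to WT after adding 1 FPKM, and a gene passed the size rule where that ratio was 1 or more in either direction and at least 1 of the 2 libraries held 5 FPKM or more. The implied SE is the error of the log2 ratio without the added 1 FPKM that the authors' deposited test statistic implies. It comes from their model of 1 library against 1 library, and counting intervals cover counting error only. Myd88, the gene deleted in the first knockout, was at 19.5 FPKM in MyD88 T-KO against 49.8 FPKM in WT and at 34.2 FPKM in IL6ra T-KO against 51.0 FPKM in WT of that table. Il6ra, the gene deleted in the second, was not reduced there, so that sample is called the IL6ra-labelled library below, and its directions are those of the library under that label. The CD4 T cell markers were high in every library, with Cd4 at 415 to 462 FPKM and Cd3e at 653 to 749 FPKM.

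Counts over the 8 chains are given first. In MyD88 T-KO none of the 6 chains with at least 5 FPKM passed the size rule, where 0.429% of all genes did. For the IL6ra-labelled library 1 of 6 passed it, Il10ra, where 1.69% of all genes did. Il12rb2 and Il23r lay beyond the same log2 ratio of 1 but below 5 FPKM, and with a minimum of 1 FPKM the count was 3 of 8 against 1.86% of all genes. The median log2 ratio of the 8 chains was 0.07 in both comparisons, beside 0.01 over all genes with at least 1 FPKM in MyD88 T-KO and -0.04 in the IL6ra-labelled library. The authors' deposited tables marked none of the 8 as significant in MyD88 T-KO and only Il10ra in the IL6ra-labelled library, beside 0.878% and 0.969% of the genes they tested.

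**Figure D1:**
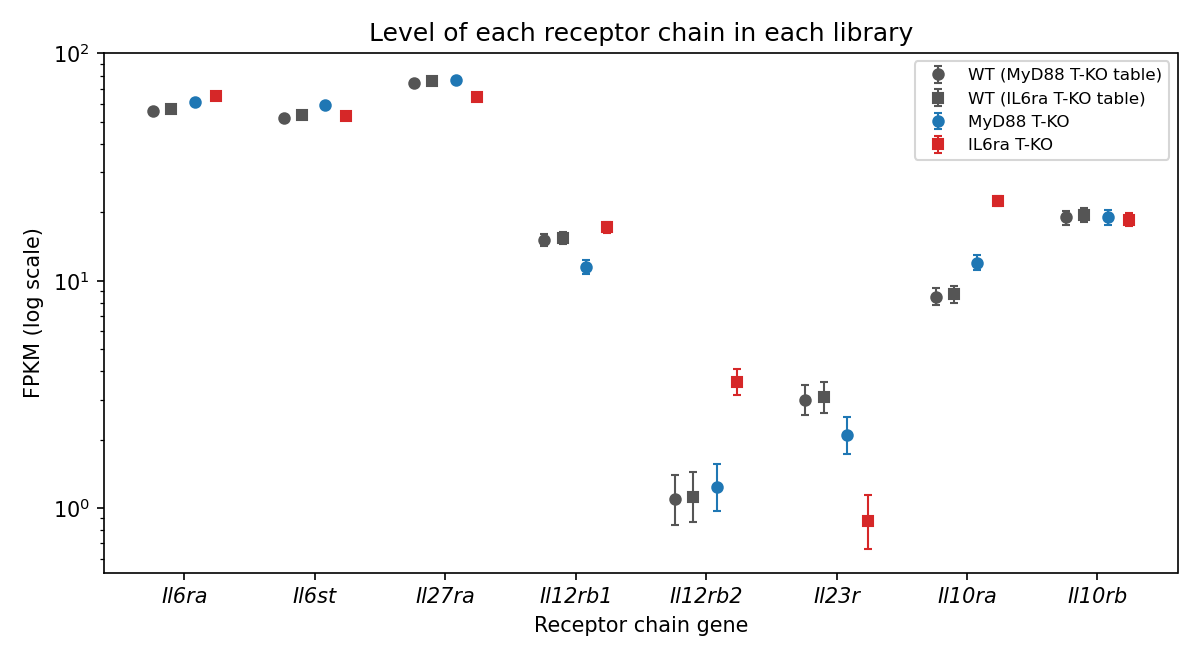
FPKM on a log axis for each receptor chain gene in each library, with the WT library drawn once from each table; bars are 95% counting intervals from estimated fragments. Il12rb2 and Il10ra are highest, and Il23r lowest, in the IL6ra-labelled library (3.59, 22.5 and 0.880 FPKM), while Il6ra, Il6st and Il27ra stay between 52.2 and 76.8 FPKM throughout.

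In WT the 8 chains spanned a wide range of levels per length. In the IL6ra T-KO table, WT held Il27ra at 76.0 FPKM, Il6ra at 57.1, Il6st at 53.5, Il10rb at 19.5, Il12rb1 at 15.5, Il10ra at 8.73, Il23r at 3.07 and Il12rb2 at 1.12. Il27ra stood above 91.7% of the genes with at least 1 FPKM in WT, and Il12rb2 above 1.19% of them. Neighbours in this order differed beyond counting error, and their spread over mice is unknown. The order differed in the other libraries. The order in the IL6ra-labelled library was Il6ra at 65.1, Il27ra at 64.4, Il6st at 52.9, Il10ra at 22.5, Il10rb at 18.6, Il12rb1 at 17.2, Il12rb2 at 3.59 and Il23r at 0.880 FPKM. There Il10ra stood above Il10rb and Il12rb1, and Il12rb2 above Il23r, whereas Il6ra and Il27ra, and Il10rb and Il12rb1, had overlapping counting intervals. In MyD88 T-KO, Il10ra at 12.02 FPKM and Il12rb1 at 11.5 FPKM had overlapping intervals, as did Il6ra and Il6st.

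Il6ra encodes the chain that binds IL-6 and is the gene deleted in the second knockout. Its level was 65.1 FPKM in the IL6ra-labelled library, beside 57.1 FPKM in WT of the same table, and 60.9 FPKM in MyD88 T-KO against 55.8 FPKM in WT. The transcript was thus slightly higher, not lower, in the library labelled as its knockout, at 1.14-fold with a counting interval of 1.09 to 1.19 and a log2 ratio of 0.18 (implied SE 0.27). In MyD88 T-KO the log2 ratio was 0.13 (implied SE 0.16). The table gives 1 value for the whole gene (chromosome 3, 89869324 to 89913162, mm10), so it does not show whether some exons were missing. An antisense gene of the GENCODE M21 annotation, Gm42809, shares 242 of the 8642 exon bases of Il6ra, and the sources used here do not say whether the counting used strand.

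Il6st encodes gp130, the chain that carries the signal of IL-6 and IL-27. Il6st (chromosome 13, 112464070 to 112506860) was at 59.6 FPKM in MyD88 T-KO against 52.2 FPKM in WT, with a log2 ratio of 0.19 (implied SE 0.16). In the IL6ra-labelled library it was at 52.9 against 53.5 FPKM, a log2 ratio of -0.02 (implied SE 0.28), with a counting interval of 0.963- to 1.02-fold. The counting interval in the first comparison, 1.11- to 1.17-fold, lay above WT.

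Il27ra, the private chain of the IL-27 receptor, had the highest level of the 8 in WT and MyD88 T-KO. Its level was 76.8 FPKM in MyD88 T-KO against 74.2 FPKM in WT, with a log2 ratio of 0.05 (implied SE 0.16). Its level in the IL6ra-labelled library was 64.4 against 76.0 FPKM, a log2 ratio of -0.24 (implied SE 0.27), below WT by less than the implied SE. Its interval in the tables, chromosome 8, 84021474 to 84042575, also covers the neighbouring gene Palm3, which was at 0.918 FPKM in WT.

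Of the IL-12 family, Il12rb1, the chain shared by the IL-12 and IL-23 receptors, was the most abundant. Il12rb1 (chromosome 8, 70808449 to 70821423) was at 11.5 FPKM in MyD88 T-KO against 15.1 FPKM in WT, which is 0.762-fold with a counting interval of 0.691 to 0.840. Its log2 ratio there was -0.36 with the added 1 FPKM and -0.39 (implied SE 0.18) without it, and the q-value in the authors' deposited table was 0.933. The IL6ra-labelled library held 17.2 against 15.5 FPKM, a log2 ratio of 0.15 (implied SE 0.30). Il12rb1 was thus below WT in MyD88 T-KO and slightly above it in the IL6ra-labelled library, and the difference between these libraries was not tested.

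The private chains Il12rb2 and Il23r are neighbours on chromosome 6 and are both annotated on the minus strand, with 46.8 kb between them. They are shown here by the 250 bases before their starts because they stood on opposite sides of WT in the IL6ra-labelled library. The set of RefSeq promoters used here, on build GRCm38.p6, held an entry for 4 of the 8 chains, namely Il6ra, Il6st, Il12rb2 and Il23r. A total of 3 short motifs were searched on both strands of these 250 bases: TTCNNNGAA, the element bound by STAT factors, AGGTCA, a half-site used by nuclear receptors, and TCACAC, the core of sites for T-box factors. Capitals mark the matches, and the sequences run 5′ to 3′ on the minus strand at chr6:67376189-67376438 and chr6:67491856-67492105.
Il12rb2: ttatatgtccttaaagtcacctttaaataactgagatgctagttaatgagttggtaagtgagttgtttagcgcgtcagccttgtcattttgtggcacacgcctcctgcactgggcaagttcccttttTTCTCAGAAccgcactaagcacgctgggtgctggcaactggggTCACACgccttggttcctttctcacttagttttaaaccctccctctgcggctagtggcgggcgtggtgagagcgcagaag
Il23r: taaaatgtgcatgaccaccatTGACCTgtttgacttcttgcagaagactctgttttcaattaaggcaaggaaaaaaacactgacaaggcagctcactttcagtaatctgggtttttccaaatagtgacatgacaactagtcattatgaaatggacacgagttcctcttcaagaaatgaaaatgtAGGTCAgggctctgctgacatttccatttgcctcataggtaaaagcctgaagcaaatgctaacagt
The Il12rb2 sequence held 1 STAT-type element, which 7.02% of all 32851 promoters hold, and 1 T-box core, which 12.3% hold. The Il23r sequence held the nuclear receptor half-site at 2 places, and 14% of all promoters hold at least 1. None of the 3 motifs occurred in these windows of Il6ra and Il6st. A match describes letters only, since no binding was measured.

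Il12rb2 encodes the chain that makes T cells responsive to IL-12. Il12rb2 (chromosome 6, 67292018 to 67376137) was at 3.59 FPKM in the IL6ra-labelled library, against 1.12 FPKM in WT and 1.24 FPKM in MyD88 T-KO (WT in that table, 1.095 FPKM). The first is 3.20-fold WT, with a counting interval of 2.42 to 4.28 from an estimated 236 and 64 fragments, and a log2 ratio of 1.11 with the added 1 FPKM and 1.68 (implied SE 0.53) without it. The authors' deposited table gave it a q-value of 0.108 and did not mark it as significant. MyD88 T-KO was at 1.13-fold WT, with a counting interval of 0.794 to 1.61 and a log2 ratio of 0.10. The GENCODE M21 annotation places the last exon of Serbp1, on the opposite strand, over 1519 of the 3794 exon bases of Il12rb2, while the Serbp1 interval of the tables ends before Il12rb2 begins. Reads of that exon of Serbp1 may therefore be counted in Il12rb2. Serbp1 itself was at 110 FPKM in the IL6ra-labelled library against 116 FPKM in WT, a log2 ratio of -0.07.

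Il23r encodes the private chain of the IL-23 receptor, found on Th17 cells. Il23r (chromosome 6, 67422932 to 67491855) was at 0.880 FPKM in the IL6ra-labelled library against 3.07 FPKM in WT, and at 2.10 FPKM in MyD88 T-KO against 3.00 FPKM in WT. WT was thus 3.49 times higher than the IL6ra-labelled library, which was at 0.287-fold with a counting interval of 0.207 to 0.389 from an estimated 55 and 167 fragments. The log2 ratio was -1.11 with the added 1 FPKM and -1.80 (implied SE 0.59) without it, and the q-value in the authors' deposited table was 0.143. In MyD88 T-KO the fold was 0.701, with a counting interval of 0.546 to 0.893, a log2 ratio of -0.37 with the added 1 FPKM and -0.51 (implied SE 0.32) without it and a q-value of 1.00 in the authors' deposited table. Il23r was below WT in both libraries, and the tables share that WT library.

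**Figure D2:**
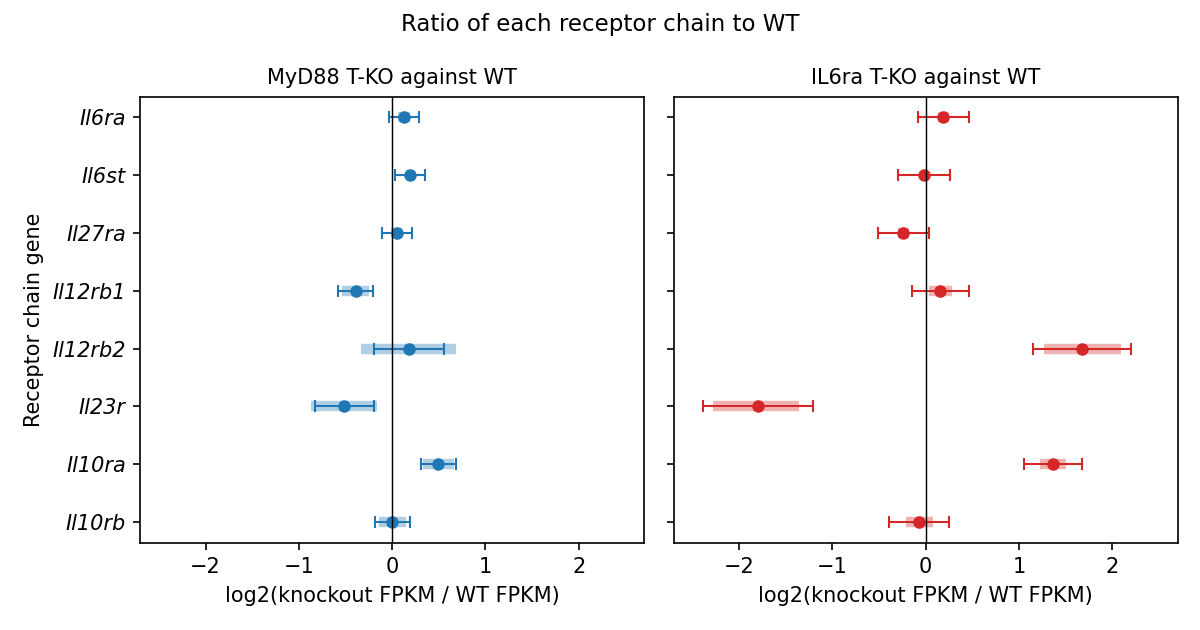
Log2 ratio of knockout to WT FPKM, without an added constant, for each receptor chain gene in MyD88 T-KO (left) and the IL6ra-labelled library (right). Thin bars are the implied SE and thick bars the 95% counting interval; in the right panel Il12rb2 (1.68), Il23r (-1.80) and Il10ra (1.36) lie apart from the other 5 chains.

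Of the IL-10 receptor chains, Il10ra, which binds IL-10, was above WT in both comparisons. Il10ra (chromosome 9, 45253839 to 45269146) was at 22.5 FPKM in the IL6ra-labelled library against 8.73 FPKM in WT, and at 12.02 FPKM in MyD88 T-KO against 8.52 FPKM in WT. The first is 2.57-fold WT with a counting interval of 2.33 to 2.84 and a log2 ratio of 1.27 with the added 1 FPKM and 1.36 (implied SE 0.31) without it. Its q-value in the authors' deposited table was 0.00292. MyD88 T-KO was at 1.41-fold WT, with a counting interval of 1.26 to 1.58, a log2 ratio of 0.45 with the added 1 FPKM and 0.50 (implied SE 0.19) without it and a q-value of 0.415 in the authors' deposited table. Among the 7933 genes with at least 5 FPKM in that comparison, 225 lay at least as far from WT as Il10ra, while 77 of 8100 did in the other.

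Il10rb, the chain completing the IL-10 and IL-22 receptors, was close to WT in both. Il10rb (chromosome 16, 91406235 to 91425834) was at 19.0 FPKM in both MyD88 T-KO and WT of that table, with a counting interval of 0.904- to 1.11-fold. The IL6ra-labelled library held 18.6 against 19.5 FPKM, a log2 ratio of -0.06 (implied SE 0.32). The annotated gene Gm21970 shares 569 of its 3808 exon bases, and the reads of these genes may be divided.

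**Figure D3:**
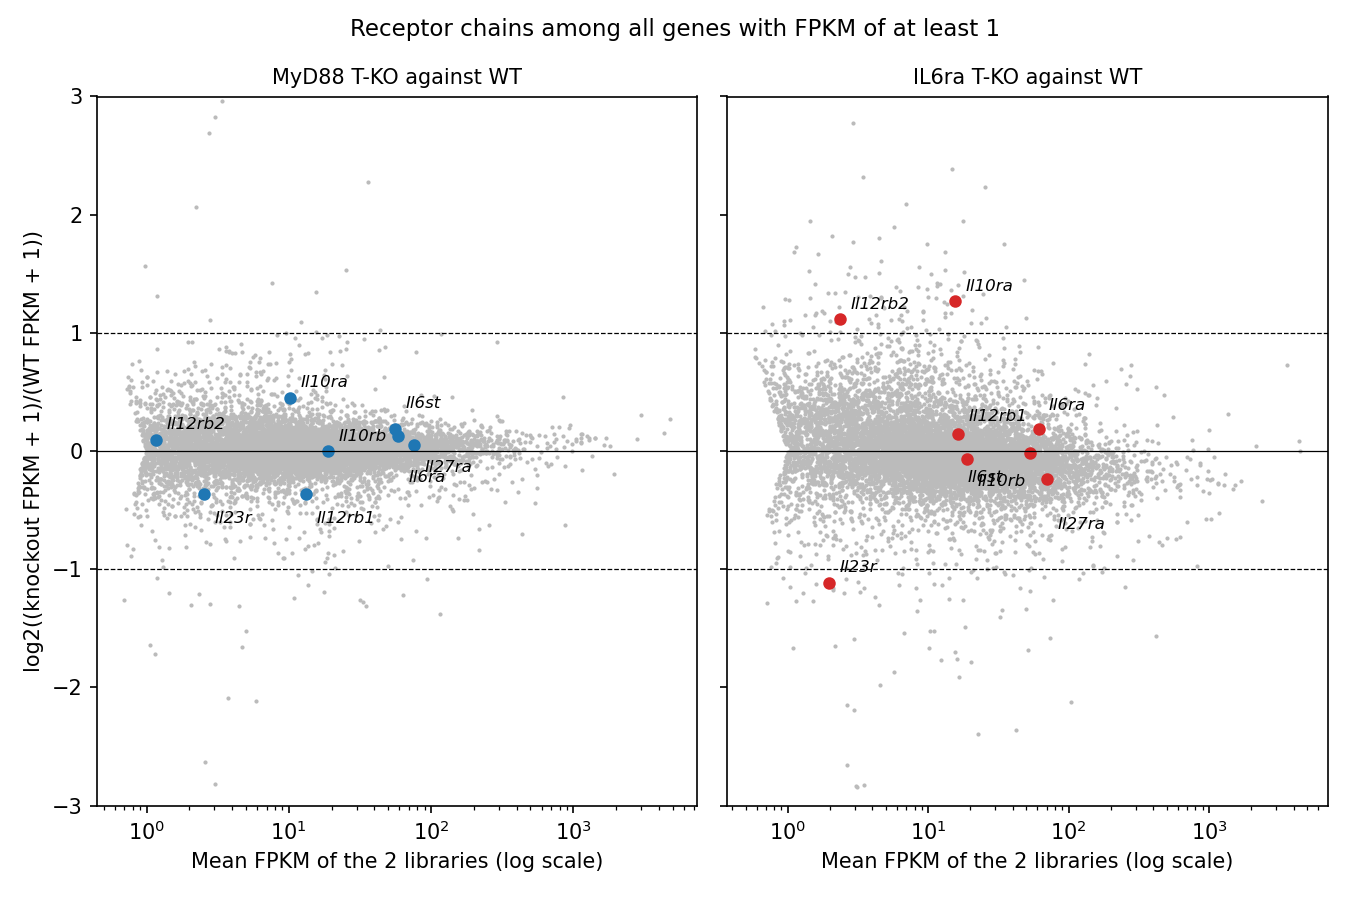
Log2 ratio with 1 FPKM added against the mean FPKM of the 2 libraries (log axis) for all genes with at least 1 FPKM in at least 1 of them (grey) and the 8 receptor chains (coloured); dashed lines mark a log2 ratio of 1 in either direction. The axis leaves out 4 genes on the left and 12 on the right beyond 3 in size; in the right panel Il10ra and Il12rb2 lie above the upper line and Il23r below the lower one.

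The balance within each receptor was compared next, since a cell needs both chains of a pair. FPKM is per length, so levels of 2 genes can be set side by side, although pooled RNA does not show which cells hold both chains. In WT the shared chain was the more abundant in the IL-12 receptor, with Il12rb1 at 13.8 times Il12rb2, and in the IL-23 receptor, with Il12rb1 at 5.04 times Il23r. These became 4.80 and 19.6 times in the IL6ra-labelled library. On the log2 scale with 1 FPKM added, the private chain relative to Il12rb1 differed from WT by 0.97 for Il12rb2 and -1.26 for Il23r. Without the added 1 FPKM these differences were 1.52 (combined implied SE 0.61) and -1.96 (0.66). Il23r was 2.74 times Il12rb2 in WT, 1.69 times in MyD88 T-KO, and in the IL6ra-labelled library Il12rb2 was 4.08 times Il23r. In MyD88 T-KO the balance of Il12rb2 to Il12rb1 differed from WT by 0.57 (combined implied SE 0.42) without the added 1 FPKM and that of Il23r to Il12rb1 by -0.12 (0.37).

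The IL-10 receptor pair was inverted in the IL6ra-labelled library, with a log2 balance of 0.27 without an added FPKM. The implied SE does not cover a balance within 1 library, and reads of Il10rb may be divided with Gm21970. Il10ra was 0.449 times Il10rb in WT, 0.633 times in MyD88 T-KO and 1.21 times in the IL6ra-labelled library. On the log2 scale without an added FPKM, these balances lay 0.50 (combined implied SE 0.26) and 1.43 (0.45) above WT. The IL-6 and IL-27 receptor pairs were nearer to even than the IL-10 pair in WT and MyD88 T-KO, but not in the IL6ra-labelled library. Il6ra was 1.07 times Il6st in WT, 1.02 times in MyD88 T-KO and 1.23 times in the IL6ra-labelled library, and Il27ra was 1.42, 1.29 and 1.22 times Il6st in the same order.

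**Figure D4:**
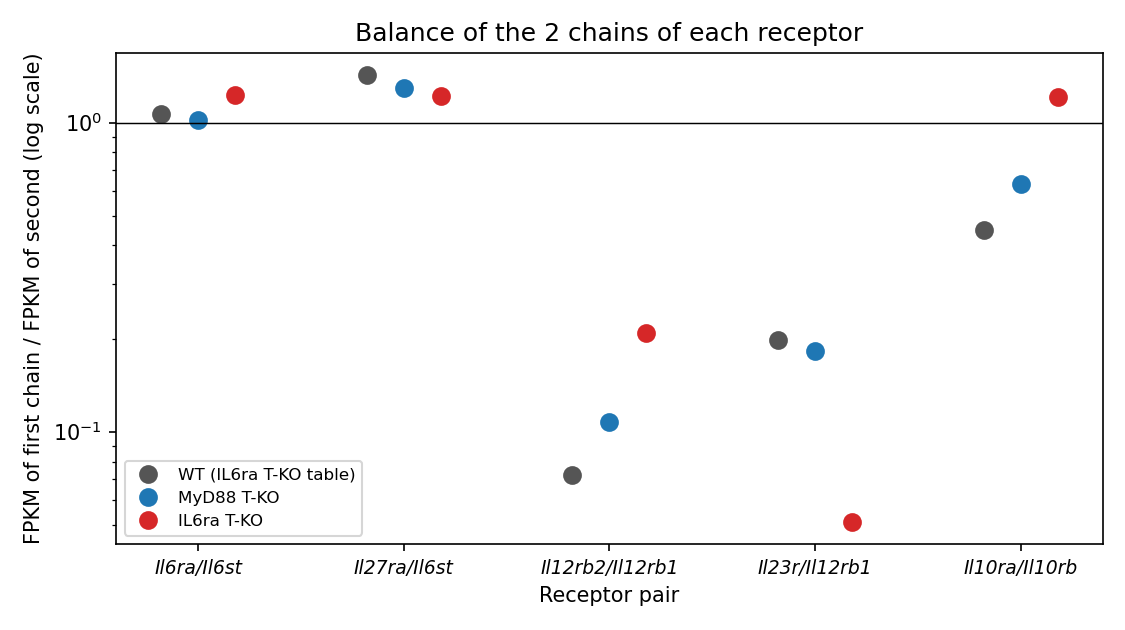
FPKM of the first chain divided by that of the second, on a log axis, for 5 receptor pairs in each of the 3 libraries; the line marks equal levels. In the IL6ra-labelled library the Il12rb2 to Il12rb1 point is the highest of its pair, at 0.208, the Il23r to Il12rb1 point the lowest, at 0.0511, and the Il10ra to Il10rb point lies above 1, at 1.21.

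The ligands of these families were examined because T cells make some of them. Of 16 ligand genes, 6 reached at least 5 FPKM in a library of each comparison, and 10 stayed below 1 FPKM. In the IL6ra-labelled library, Ebi3, a subunit of IL-27 and IL-35, passed the size rule upward at 15.9 against 4.97 FPKM, which is 3.20-fold, and 2 ligands passed it downward, beside 0.951% and 0.741% of all genes. Il22, whose receptor uses Il10rb, was at 3.10 against 173 FPKM (-5.41), and Lif, an IL-6 family cytokine that signals through gp130, at 6.35 against 26.6 FPKM (-1.91). In MyD88 T-KO the same 2 genes passed it downward, Il22 at 64.3 against 169 FPKM (-1.38) and Lif at 12.1 against 26.0 FPKM (-1.04), beside 0.24% of all genes, and Clcf1 had the highest log2 ratio among ligands with at least 5 FPKM, 0.41. Il10, the ligand of Il10ra, was named after its values were seen and did not pass the rule in either: it was at 33.4 against 24.5 FPKM in the IL6ra-labelled library and at 14.6 against 23.9 FPKM in MyD88 T-KO, log2 ratios of 0.43 and -0.68.

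Other receptor chains, the kinases and the genes of receptor shedding are given next. Over all genes, 0.429% passed the size rule in MyD88 T-KO and 1.69% in the IL6ra-labelled library. Beside such shares, lists this short would mostly hold no gene past the rule. Of 17 other receptor chains listed with these families in the tables, 4 reached at least 5 FPKM: Crlf2, Ifngr1, Ifnar1 and Ifnar2. None of these passed the size rule in either comparison, and Ifngr1, Ifnar1 and Ifnar2 are interferon receptor chains. Lifr, Osmr, Il11ra1, Il20rb and Il22ra1 stayed below 1 FPKM in every library, too low for the size rule. The log2 ratios of the 4 chains with at least 5 FPKM ran from -0.08 for Ifnar1 to -0.02 for Ifnar2, chains of the type I interferon receptor, in MyD88 T-KO. In the IL6ra-labelled library they ran from -0.45 for Ifnar2 to 0.32 for Ifngr1, the ligand-binding chain of the interferon gamma receptor. The 6 JAK and STAT genes used by these receptors were all above 5 FPKM and none passed the rule, with Jak2 the lowest in the IL6ra-labelled library at -0.54 and Jak1 the lowest in MyD88 T-KO at -0.12. Of 5 genes of receptor shedding, 3 reached 5 FPKM and none passed. Adam17, the protease that cuts the IL-6 receptor from the surface, was at -0.12 and -0.02, and Adam10 at 0.03 and 0.11, in MyD88 T-KO and the IL6ra-labelled library.

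Inhibitors that act on these receptors differed by gene. Of 10, 9 reached at least 5 FPKM, and 2 passed the size rule downward in the IL6ra-labelled library and none in MyD88 T-KO, beside 0.741% and 0.24% of all genes. Socs3, which binds gp130 and is induced through STAT3, was at 37.9 against 169 FPKM (-2.13), and Socs1, an inhibitor of JAK kinases, at 36.7 against 112 FPKM (-1.58). Among the 9, Cish had the highest ratio there, 0.32. In MyD88 T-KO their range ran from Socs3 at -0.49 to the phosphatase gene Ptpn6 at 0.17.

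Genes known as targets of STAT3 or STAT4 in T cells lay on both sides of WT. Of 19 genes, 18 reached at least 5 FPKM in the IL6ra-labelled library, and 2 passed the size rule upward and 7 downward, beside 0.951% and 0.741% of all genes. Of the 18, 6 lay above WT and 12 below. Those past the rule upward were the Th1 genes Tbx21, at 10.3 against 3.96 FPKM (1.18), and Ifng, at 27.7 against 12.5 FPKM (1.09). The authors' deposited table marked neither as significant. Those past the rule downward included Bcl3 (-1.16), Batf (-1.03), Il21 (-1.07), Il1r1 (-2.36), Il17a (-1.98) and Il17f (-2.82). In MyD88 T-KO, 16 reached 5 FPKM and 2 passed downward, beside 0.24% of all genes, namely Il17a at -1.66 and Il17f at -2.09, while Maf had the highest ratio, 0.07. The medians over genes with at least 5 FPKM were -0.30 and -0.45, beside -0.06 and 0.01 over all genes.

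The genes nearest to Il10ra and Il6ra in both log2 ratios were sought among 7378 genes with at least 5 FPKM, over the 3 libraries. The nearest to Il10ra were Apoe, which encodes apolipoprotein E, at a distance of 0.15, Zbtb32, a zinc finger transcription factor gene, at 0.15, and Art2a-ps at 0.16. Their log2 ratios were 0.60, 0.40 and 0.35 in MyD88 T-KO and 1.29, 1.41 and 1.40 in the IL6ra-labelled library, and no gene lay within 0.1 of Il10ra. Il6ra lay in a crowded place, with 394 genes within 0.1, the nearest being Arrb2, Psen2 and Kctd10, each at a distance of 0.01.

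Markers of other cells that can carry these receptors also differed between the libraries, and in bulk RNA fewer cells of a type and less RNA per cell cannot be told apart. All 10 B cell markers were above WT in both comparisons, which share the WT library. Among all genes with at least 1 FPKM, 5602 of 10345 were above WT in MyD88 T-KO and 4524 of 10502 in the IL6ra-labelled library. The B cell markers had a summed level of 216 against 135 FPKM in MyD88 T-KO and 197 against 138 FPKM in the IL6ra-labelled library. Cd22 in MyD88 T-KO was near WT, at a log2 ratio of 0.07 (implied SE 0.16). The 12 macrophage and dendritic cell markers in the tables summed to 24.6 against 16.9 and 21.9 against 17.3 FPKM, with Clec9a at 0 in both libraries of the second comparison. Only 2 of them reached 1 FPKM, and these differed in opposite directions. Lyz2 was at 15.0 against 7.25 FPKM in MyD88 T-KO and 12.9 against 7.43 FPKM in the IL6ra-labelled library. Cd68 was at 7.82 against 8.31 FPKM and 5.93 against 8.51 FPKM in the same order. The 4 regulatory T cell markers summed to 270 against 368 FPKM in MyD88 T-KO and 456 against 377 FPKM in the IL6ra-labelled library, where all 4 lay above WT. In MyD88 T-KO the lower sum came with Ctla4, at 168 against 266 FPKM, while Foxp3 was at 21.3 against 25.5, Il2ra at 18.1 against 19.1 and Ikzf2 at 62.9 against 57.0 FPKM. The part of any of these cells in the Il10ra values was not tested.

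The remaining marker lists gave these values. The 4 plasma cell markers in the tables summed to 65.4 against 56.8 FPKM in MyD88 T-KO and 87.9 against 58.2 FPKM in the IL6ra-labelled library. Within that list Igj, which encodes the joining chain of secreted antibodies, was at 15.7 against 7.96 FPKM and at 42.2 against 8.16 FPKM, the second past the size rule with a log2 ratio of 2.24. In the same order, Xbp1 was at 48.7 against 48.2 FPKM and at 43.6 against 49.3 FPKM, lower in the second. Sdc1 was at 1.02 against 0.694 FPKM and at 1.66 against 0.711 FPKM. Cd8a and Cd8b1, which mark CD8 T cells, summed to 22.0 against 11.4 FPKM in MyD88 T-KO, where the authors' deposited table marked both as significant, and to 14.2 against 11.7 FPKM in the IL6ra-labelled library. Of 8 neutrophil markers, 4 reached 1 FPKM, and the list summed to 38.9 against 35.6 FPKM in MyD88 T-KO and to 21.9 against 36.4 FPKM in the IL6ra-labelled library. In the latter these 4 were all below WT, with S100a8 at 11.1 against 19.4 FPKM and S100a9 at 7.98 against 11.7 FPKM. Mpo, Elane and Csf3r, each below 1 FPKM, went the other way there, Mpo at 0.798 against 0.0329 FPKM. Of 6 markers of stroma and endothelium, 1 reached 1 FPKM, Pecam1, which leukocytes also express, and the list summed to 49.4 against 52.8 and 51.9 against 54.1 FPKM. The part of these cells in the values of the 8 chains was not tested either.

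Gamma delta T cells can carry Il23r, and NK cells Il12rb2. Of 4 gamma delta markers in the tables, 3 reached 1 FPKM, and the list summed to 9.76 against 9.61 FPKM in MyD88 T-KO and 5.35 against 9.85 FPKM in the IL6ra-labelled library. Within it Cd163l1 was at 0.338 against 4.93 FPKM in the latter, while Blk, also a B cell gene, was at 4.43 against 2.79 FPKM. The near-equal sum in MyD88 T-KO held opposite differences. There Cd163l1 was at 3.02 against 4.81 FPKM and 5830411N06Rik at 1.10 against 2.07 FPKM, while Blk was at 5.63 against 2.72 FPKM. The 5 NK and innate lymphoid markers summed to 8.91 against 8.52 FPKM and to 10.2 against 8.73 FPKM. Of these, 2 reached 1 FPKM, and Klra8 was at 0 in both libraries of the second comparison. There Eomes, which T cells also express, was at 5.13 against 2.60 FPKM and Klrk1 at 0.999 against 0.195 FPKM. Klrb1c was lower there, at 3.98 against 5.77 FPKM, as was Ncr1, at 0.0910 against 0.161 FPKM. Their part in the Il23r and Il12rb2 values was not tested.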

How the data were processed

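RNA of 3 pooled libraries, 1 per group and grouped by title, was measured. The submitters' processing notes list TopHat, Cufflinks and the build mm10, and the sources used here give no version, setting or strand use. The authors deposited 2 tables of FPKM, scaled within each table, with column names of a Cuffdiff gene table, per the file headers. The authors also deposited a test statistic (a score), a p-value and a q-value per gene, each comparing 1 library with 1 library. A line without values, 1 per deposited table, was left out. The number of genes the authors tested was 11164 for MyD88 T-KO and 11356 for IL6ra T-KO.

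From these, log2((knockout FPKM + 1)/(WT FPKM + 1)) was computed for all genes with Python 3.11.15, pandas 2.3.3 and SciPy 1.17.1. No test was made, since each group is 1 library. The implied SE is the log2 ratio without a pseudocount divided by the deposited statistic. Depth was estimated from genes with a single GENCODE M21 transcript and less than 1 FPKM, as the depth at which FPKM times transcript length (less 100 bases) falls nearest to whole fragments. Between 40.1% and 52.5% of these values fell within 0.1 of a whole number, so depths and fragments are estimates. Counting intervals are exact Clopper-Pearson intervals for ratios and exact Poisson intervals for levels, at 95%, from fragments of the shortest RefSeq transcript. Starts of genes were raised by 1 to count from 1.

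Named genes were the 8 chains, Myd88, from each pathway list those past the size rule and the highest and lowest ratio, and the 3 genes nearest to Il6ra and Il10ra; some that the rule names are not reported here. The members, lists, rules and alternatives were chosen with earlier results of these data known.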

Additional observations from a re-analysis of the deposited data

How the results depend on the processing

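No paired analysis was possible because each group has 1 library, and leaving out a library was not possible either. In MyD88 T-KO the count of chains past the size rule was 0 under all 9 alternatives (other pseudocounts, FPKM minimums, threshold, centring, WT values and rows). In the IL6ra-labelled library it was 1 under 7 of them and 3 with an FPKM minimum of 1 and with none, which admit Il12rb2 and Il23r. The log2 ratio of Il12rb2 was 0.49 and that of Il23r -0.46 with 5 FPKM added, and that of Il10ra went from 1.27 to 1.00, at the threshold, so the size of all 3 depends on the pseudocount. Of 96 alternative ratios, 92 kept their sign, and of 150 balances, 148 did. Most of these could not change sign, so the counts are no check of the directions. Another pseudocount leaves the sign of a ratio, or of a balance within 1 library, as it was. Summing rows changes nothing for chains with 1 row.

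The balances that moved beyond counting error did so with the pseudocount, by its own construction. Against WT, Il12rb2 to Il12rb1 in the IL6ra-labelled library was 1.44 with 0.1 FPKM, 0.37 with 5 FPKM and 1.52 with none, Il23r to Il12rb1 was -1.85, -0.58 and -1.96, and Il10ra to Il10rb was 1.05 with 5 FPKM. Within libraries, with 0.1 FPKM, 5 FPKM and none, Il12rb2 to Il12rb1 was -3.12, -1.40 and -3.22 in MyD88 T-KO, -3.67, -1.74 and -3.79 in WT of the IL6ra T-KO table and -3.67, -1.72 and -3.79 in WT of the MyD88 T-KO table, and -1.37 with 5 FPKM in the IL6ra-labelled library. Il23r to Il12rb1 was -4.14, -1.92 and -4.29 in that library, -2.40, -1.22 and -2.45 in MyD88 T-KO, and with 5 FPKM -1.34 and -1.33 in WT. Il10ra to Il10rb in WT was -0.83 in both tables with 5 FPKM. Il12rb2 and Il23r rest on an estimated 55 to 236 fragments per library, which limits their precision.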

Other observations

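Il12rb2 and Il23r stood on opposite sides of WT in the IL6ra-labelled library although they are neighbours, and 3 other genes within 500 kb of the middle of the gap between them are given as values. Serbp1, next to Il12rb2, was at a log2 ratio of -0.07 there and 0.07 in MyD88 T-KO. Gadd45a, a stress-response gene, was at 16.0 against 29.4 FPKM in the IL6ra-labelled library, a log2 ratio of -0.84, and at 28.8 against 28.7 FPKM in MyD88 T-KO. Gng12 was at -0.13 and 0.01 in the same order.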
